A study of Mus musculus with 32 samples.

Results

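The Igkv12 family is a group of related Vκ segments of the mouse Igκ light-chain locus. Igkv12-98, Igkv12-46, Igkv12-44, Igkv12-41 and Igkv12-38 were chosen by name, as 5 of the 112 Vκ segments counted separately on the B6 and Cast alleles. The tables hold 8 rows of the family in all. Of the other 3, Igkv12-89 was read on both alleles, the pseudogene Igkv12-40 was read on Cast only with 0 B6 reads of 5273 over all libraries, and the pseudogene Igkv12-47 had 0 reads. The RNA of rearranged Igκ genes came from pre-B cells of female F1 mice of a cross of C57BL/6 (B6) with M. castaneus (Cast), the strain being written C57BL6/Castaneous in the labels. The 5 clones (3, 4, 8, B52 and E9-3, the last labelled E93), each grown from a single cell of bone marrow cultured with IL-7 on ST2 feeder cells, gave 1 library each after 48 h without IL-7. Clone 4 gave another 4 libraries at 12, 24, 36 and 48 h, and a pre-B pool gave 1 library. The labels call the pool cultured cells, whereas the methods describe cells taken from the bone marrow of a mouse aged 12 weeks, and no hours without IL-7 are given for it.

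During Igκ rearrangement the RAG recombinase joins a Vκ segment to a Jκ segment at recombination signal sequences (RSS), each made of a heptamer and a nonamer around a spacer. A segment in the transcriptional orientation of Jκ joins by deletion of the DNA in between, and a segment in the opposite orientation joins by inversion. Each allele can rearrange, and a cell can follow an earlier join with a further one to a remaining Jκ segment. The reads per allele describe the joins found in the RNA of a cell population when it was taken. How far they follow the number of joins made was not tested.

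All 5 segments lie on chromosome 6 of mm10 and are annotated in GENCODE M21 as functional V genes with 2 exons. Igkv12-98 lies far from the others, at chr6:68570763-68571235 on the plus strand, 2151 kb from Jκ1, and joins by deletion. The other 4 lie on the minus strand and join by inversion, namely Igkv12-46 at chr6:69764523-69765022, Igkv12-44 at chr6:69814631-69815154, Igkv12-41 at chr6:69858420-69858884 and Igkv12-38 at chr6:69943186-69943648. Igkv12-38 is the nearest to Jκ1, at 779 kb. The Cκ exon, where the primer for cDNA annealed, is at chr6:70726435-70726966 on the plus strand.

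The RSS adjoining each segment was read from mm10, and is shown because it is the site at which the segment is joined. Its part in the levels and B6 shares was not tested. Capitals mark the heptamer and the nonamer, in the 5′ to 3′ direction of the segment. Igkv12-98 is at chr6:68571236-68571263 (plus strand), Igkv12-46 at chr6:69764495-69764522 (minus strand), Igkv12-44 at chr6:69814603-69814630 (minus strand), Igkv12-41 at chr6:69858392-69858419 (minus strand) and Igkv12-38 at chr6:69943158-69943185 (minus strand).
Igkv12-98: CACAGTGattcaagccataACATAAACC
Igkv12-46: CACAGTGattcaagccatgACATAAACC
Igkv12-44: CACAGTGattcaagccatgACATAAACC
Igkv12-41: CACAGTGattcaagccatgACATAAACC
Igkv12-38: CACAGTGattcaagccatgACATAAACC
The RSS was the same in Igkv12-46, Igkv12-44, Igkv12-41 and Igkv12-38, and also in the pseudogene Igkv12-40, which are 5 of the 109 counted segments with an RSS window (4.59%). That of Igkv12-98 differs from it by A19G, counted from 1 at the 5′ end of the RSS, with the base of Igkv12-98 first. Each window starts directly after the segment on its own strand, or 2 bases before its annotated end in Igkv4-71, Igkv4-62 and Igkv4-54. The heptamer CACAGTG stands in 95 of the 109 windows (87.2%). The nonamer ACATAAACC stands in 26 (23.9%), and the consensus nonamer ACAAAAACC stands in 38 (34.9%) and in none of the 5 segments. A match describes these letters on the B6 reference only, since no Cast sequence was used.

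The coding sequences of the family are also close, which bears on how reads could be split between them. Over the annotated B6 transcripts, Igkv12-44 and Igkv12-41 were 95.7% identical (15 differences over 347 aligned bases), Igkv12-46 and Igkv12-41 95.1%, and Igkv12-46 and Igkv12-44 94.9%. Igkv12-38 was at most 87.5% identical to another member of the family, and Igkv12-98 at most 82.1%. The V exons of Igkv12-44 (chr6:69814631-69814928), Igkv12-41 (chr6:69858420-69858717) and the pseudogene Igkv12-40 (chr6:69879350-69879647), all on the minus strand, are shown because their reads fell on the alleles in unlike ways. Capitals mark bases that differ from Igkv12-44.
Igkv12-44: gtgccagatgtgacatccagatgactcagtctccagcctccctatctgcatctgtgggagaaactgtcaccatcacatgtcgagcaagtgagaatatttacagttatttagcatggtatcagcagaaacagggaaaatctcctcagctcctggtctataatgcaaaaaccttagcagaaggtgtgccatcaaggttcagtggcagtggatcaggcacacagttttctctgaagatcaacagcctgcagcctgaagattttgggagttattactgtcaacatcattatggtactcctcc
Igkv12-41: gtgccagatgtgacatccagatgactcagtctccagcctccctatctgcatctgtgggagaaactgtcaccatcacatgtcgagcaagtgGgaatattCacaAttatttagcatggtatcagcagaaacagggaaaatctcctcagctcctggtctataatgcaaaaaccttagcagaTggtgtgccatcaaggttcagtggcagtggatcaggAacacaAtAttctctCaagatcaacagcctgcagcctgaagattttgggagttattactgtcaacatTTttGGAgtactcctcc
Igkv12-40: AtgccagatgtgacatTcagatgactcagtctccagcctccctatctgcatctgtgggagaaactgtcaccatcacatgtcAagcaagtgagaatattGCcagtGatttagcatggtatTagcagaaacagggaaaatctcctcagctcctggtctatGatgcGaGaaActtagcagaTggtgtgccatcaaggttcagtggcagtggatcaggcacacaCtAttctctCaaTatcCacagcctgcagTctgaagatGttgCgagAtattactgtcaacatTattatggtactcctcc
Of the 298 bases, 13 differ in Igkv12-41 and 22 in Igkv12-40. How the alignment divided reads between such near copies was not tested, so that levels of Igkv12-46, Igkv12-44 and Igkv12-41 are uncertain to that extent.

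Reads assigned to an allele numbered 34291 to 320951 in the pool and the 5 clones at 48 h, and 1174 to 10958 in the time course. The share of reads on the B6 allele was 51.2% to 71.8% in the pool and the 5 clones, and 76.2% to 84.2% in the time course. The contribution of a segment is given as the percent of all reads of its library, and its B6 share as the percent of its own reads on the B6 allele. Intervals are 95% Wilson intervals and cover counting error only, since the reads carry no molecular identifiers, and 3 reads were taken as the detection limit. Each clone had 1 library at 48 h in this table, so that clone 4, sequenced again in the time course, gives the only measure of spread between libraries of the same clone.

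Together the 5 segments made up 7.08% of rearranged reads in the pool and 4.22%, 6.67%, 5.13%, 2.66% and 6.68% in clones 3, 4, 8, B52 and E9-3. Igkv12-46, Igkv12-44 and Igkv12-41 carried most of these reads, with an exception in clone E9-3, where Igkv12-38 led. Igkv12-98 was the lowest of the 5 in each of the 6 libraries. The B6 share of the 5 segments together was 42.1% in the pool, where 57.4% of all reads lay on B6, and 79.1% in clone E9-3, where 53.7% did. In the other clones it lay between 53.6% (clone 3) and 70.9% (clone 4).

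**Figure D1:**
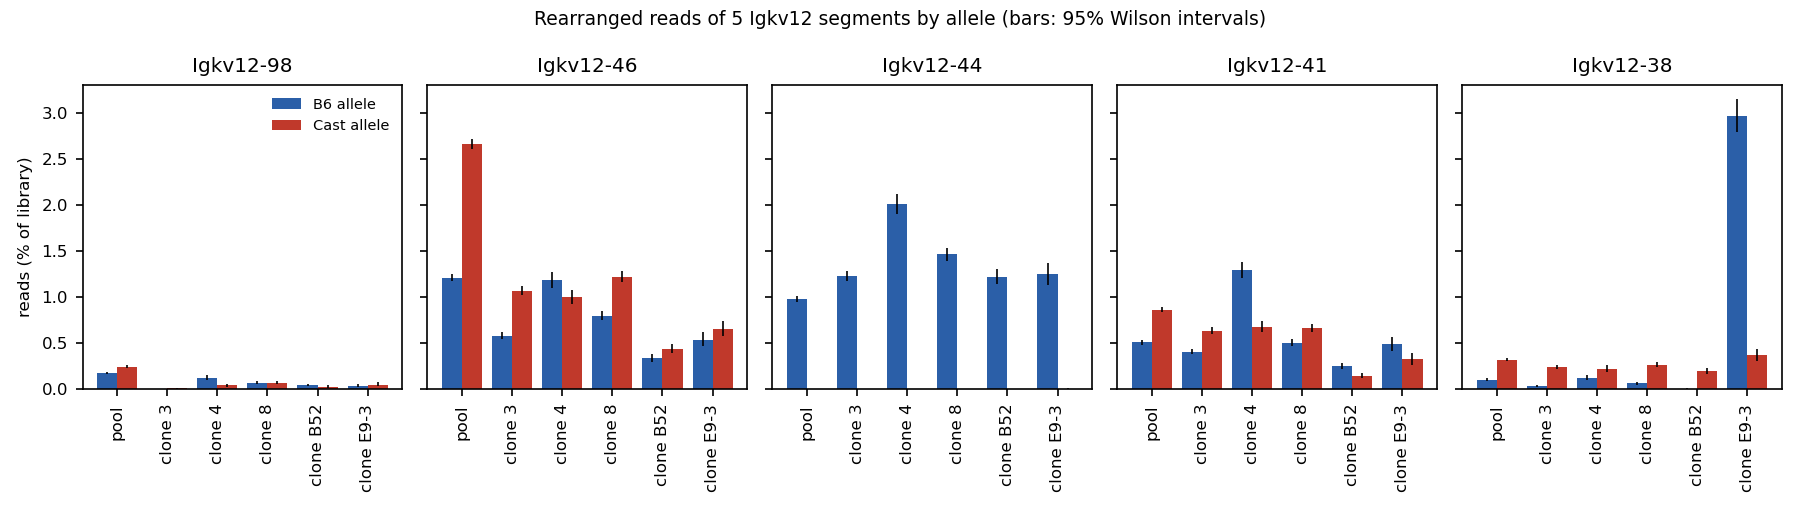
Reads of each segment on the B6 allele (blue) and the Cast allele (red) as percent of all reads of the library (y axis), in the pool and the 5 clones at 48 h (x axis), 1 library each, with 95% Wilson intervals as error lines. Igkv12-44 has bars on B6 only, Igkv12-46 is highest on Cast in the pool (2.66%), and Igkv12-38 is highest on B6 in clone E9-3 (2.97%).

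Igkv12-44 was read on the B6 allele in every library. On B6 it had 3138 reads in the pool and 2038, 1302, 1743, 846 and 428 reads in clones 3, 4, 8, B52 and E9-3, and its only Cast read was in clone 8. Over all 10 libraries 1 of its 10139 reads was on Cast. The detection limit of 3 reads allows a Cast share of up to 0.0956% in the pool and up to 0.701% in clone E9-3. Of the 104 segments that reached 100 reads in all libraries together, 15 (14.4%) had at most 1 Cast read, and 3 had no B6 read, so that reads on a single allele were not confined to this segment. What set the near absence of Cast reads was not tested.

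On its only allele Igkv12-44 had the smallest range of contribution over the 5 clones among the members. It made up 0.978% of the pool and 1.23%, 2.01%, 1.47%, 1.22% and 1.25% of clones 3, 4, 8, B52 and E9-3. The highest clone exceeded the lowest by 1.65-fold. Over both alleles the fold was 2.81 for Igkv12-46, 4.99 for Igkv12-41, 16.1 for Igkv12-98 and 16.8 for Igkv12-38. The nearest on a single allele was Igkv12-38 on Cast, at 1.88-fold. As percent of each allele's own reads this was 1.59-fold, against 1.51-fold for Igkv12-44 on B6. The folds over both alleles of the other 4 depended on single libraries, as computed after the values were seen. Without clone E9-3 Igkv12-38 differed by 1.73-fold, without clone 3 Igkv12-98 by 2.29-fold, and without clone B52 Igkv12-41 by 2.42-fold and Igkv12-46 by 1.82-fold, and without clone 4 Igkv12-41 by 2.96-fold. Without clone 4 Igkv12-44 differed by 1.20-fold. In the other 48 h library of clone 4 it made up 3.15%, which would widen its range. The mean of Igkv12-44 over the clones was 1.44% ± 0.338 (SD, n = 5). The segments with the nearest B6 share over the 6 libraries were 6 with the same mean difference of 0.00956 percentage points, among them Igkv13-85 and Igkv4-75, all with every read on B6.

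The pseudogene Igkv12-40 showed the opposite pattern. All of its reads were on Cast, with 2512 in the pool and 741, 374, 1426, 105 and 47 in clones 3, 4, 8, B52 and E9-3. In these libraries its level ranged from 0.137% in clone E9-3 to 1.20% in clone 8. Its V exon is 92.6% identical to that of Igkv12-44.

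Igkv12-46 was read on both alleles, with a B6 share below that of all reads in each of the 6 libraries. On B6 it had 3884 reads in the pool and 966, 765, 948, 233 and 185 in clones 3, 4, 8, B52 and E9-3, and on Cast it had 8543 in the pool and 1773, 645, 1454, 303 and 225 in the same clones. The B6 shares were therefore 31.3% in the pool and 35.3%, 54.3%, 39.5%, 43.5% and 45.1% in clones 3, 4, 8, B52 and E9-3. The differences from the B6 share of the library ran from −26.2 percentage points in the pool to −8.55 in clone E9-3. In order of B6 share, the pool, clone 3 and clone 8 had intervals that did not overlap, clones 8, B52 and E9-3 overlapped with their neighbours in the order, and clone 4 lay above all of them. The pool stood out by level, with 3.87% of its reads and rank 5 of all segments, against 0.775% in clone B52 to 2.18% in clone 4 and a mean of 1.56% ± 0.581 (SD, n = 5).

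The surplus of the pool lay mainly on the Cast allele. On Cast, Igkv12-46 made up 2.66% of the pool, where it ranked 3 of all segments, and 0.438% (clone B52) to 1.22% (clone 8) of the clones. On B6 it made up 1.21% of the pool, next to clone 4 at 1.18%, and 0.337% to 0.797% of the other clones.

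Igkv12-41 was lower than Igkv12-46 in each of the 6 libraries, although in clone 4 their intervals overlapped, and the allele with more reads differed between the clones. On B6 it had 1636 reads in the pool and 680, 835, 602, 173 and 168 in clones 3, 4, 8, B52 and E9-3, and on Cast it had 2782 in the pool and 1050, 439, 788, 100 and 111 in the same clones. More reads lay on Cast in the pool and in clones 3 and 8, with B6 shares of 37.0%, 39.3% and 43.3%, and more on B6 in clones E9-3, B52 and 4, with 60.2%, 63.4% and 65.5%. Against the B6 share of its library only clone E9-3 was higher, by 6.54 percentage points, and the others ran from −20.4 (pool) to −2.42 (clone B52). Within each of these sets the intervals of neighbouring libraries overlapped, and between clone 8 and clone E9-3 they did not. Its level ranged from 0.395% in clone B52 to 1.97% in clone 4, with 1.38% in the pool, 1.04%, 1.17% and 0.814% in clones 3, 8 and E9-3.

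Igkv12-41 was among the segments nearest to Igkv12-46 in B6 share. Over the 6 libraries the mean absolute difference was 9.99 percentage points, rank 2 for Igkv12-46 of 84 segments compared, after Igkv18-36 at 8.24. For Igkv12-41 the nearest were Igkv16-104 at 8.80 and Igkv7-33 at 9.03 percentage points. Igkv12-46 and Igkv12-41 are near copies, and the points of such a comparison share their libraries.

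**Figure D2:**
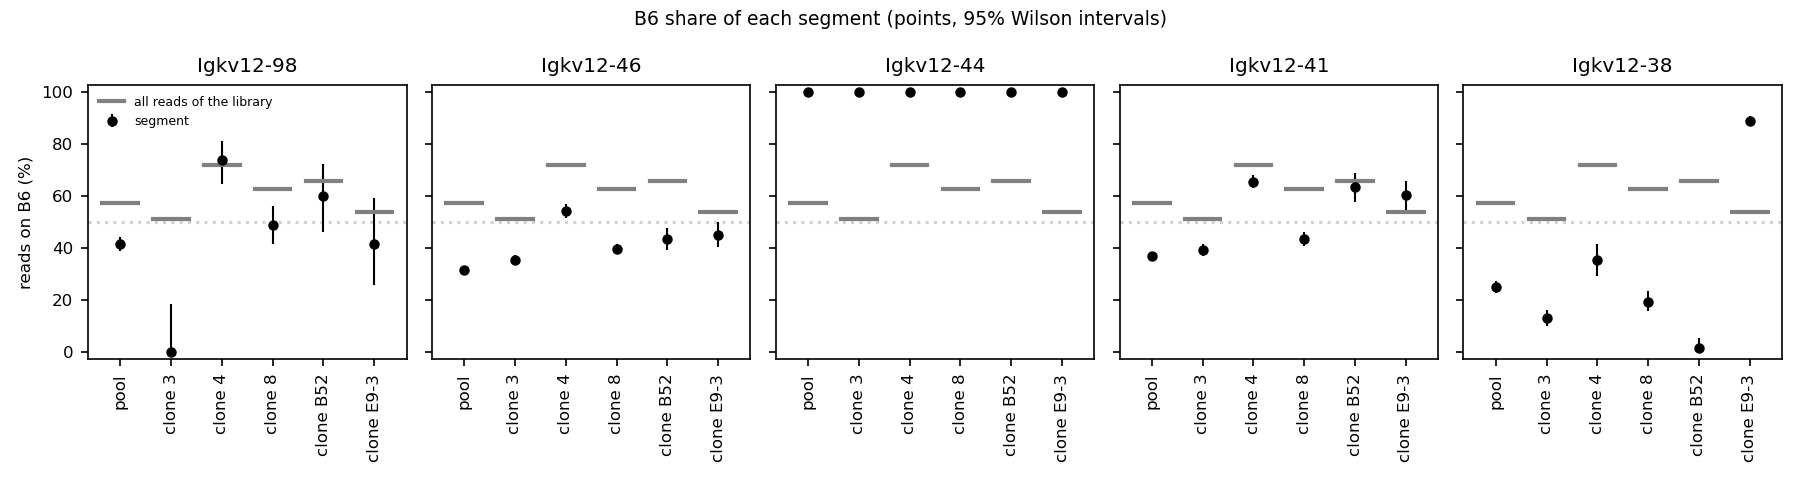
Percent of the reads of each segment on the B6 allele (y axis) in the pool and the 5 clones at 48 h (x axis), as points with 95% Wilson intervals, with the B6 share of all reads of the library as grey lines and 50% dotted. Igkv12-44 stays at or next to 100%, Igkv12-46 lies under the grey line in all 6 libraries, and Igkv12-38 lies under it except in clone E9-3, where it reaches 89.0%.

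Igkv12-38 had mostly Cast reads in the pool and 4 clones and mostly B6 reads in clone E9-3. Its B6 reads numbered 340 in the pool and 59, 78, 76, 2 and 1018 in clones 3, 4, 8, B52 and E9-3, and its Cast reads 1035 in the pool and 403, 144, 320, 135 and 126 in the same clones. The B6 share was 24.7% in the pool and 12.8%, 35.1%, 19.2%, 1.46% and 89.0% in clones 3, 4, 8, B52 and E9-3. The interval of clone E9-3 (87.0% to 90.7%) lay far above that of clone 4 (29.2% to 41.6%), the next in the order, and the interval of clone B52 (0.401% to 5.17%) lay below all others. Only clone E9-3 lay above the B6 share of its library, by 35.3 percentage points, and in the others the difference ran from −64.3 (clone B52) to −32.7 percentage points (pool).

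The difference of clone E9-3 lay in the B6 reads. On Cast, Igkv12-38 made up 0.195% to 0.367% of the clones, a range of 1.88-fold, and 0.322% of the pool. On B6 it made up 2.97% of clone E9-3, which was 24.6-fold the 0.121% of clone 4, the next clone. In clone B52 the 2 B6 reads were below the detection limit. Igkv12-38 thereby ranked 3 of all segments on the B6 allele of clone E9-3 and 4 over both alleles, against rank 57 to 70 over both alleles in the pool and the other clones. Over both alleles it made up 3.34% of clone E9-3 and 0.198% to 0.343% of the other clones, with 0.428% in the pool. Clone E9-3 was the shallowest of the 6 libraries and has no further library here.

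The neighbours of Igkv12-38 had their highest B6 shares in clone E9-3 too, at unlike levels. Igkv5-37, its counted neighbour 19.7 kb nearer to Jκ, had the B6 shares nearest to it over the 6 libraries, with a mean absolute difference of 14.0 percentage points, and Igkv13-84 was next at 18.3. Igkv5-37 had a B6 share of 7.45% in the pool and 10.2%, 21.7%, 8.19%, 38.6% and 86.4% in clones 3, 4, 8, B52 and E9-3. The last value rests on 22 reads, or 0.0642% of the library, against 0.230% to 1.92% in the other clones, so that Igkv5-37 was at its lowest level where Igkv12-38 was at its highest. On the distal side, 42.2 kb away, Igkv5-39 had a B6 share of 88.2% in clone E9-3, at 1.11% of the library, and 52.1% to 69.8% in the other 5 libraries.

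The 4 inverting members belong to the 16 counted segments with position numbers 33 to 50. Of these, 15 had at least 20 reads in the pool and clone 3, and 14 in clones 4, 8, B52 and E9-3. Over those the median B6 share was 39.3% in the pool and 39.3%, 66.4%, 43.5%, 61.8% and 73.8% in clones 3, 4, 8, B52 and E9-3. The median over all segments with at least 20 reads was 65.5%, 57.9%, 80.8%, 78.0%, 69.8% and 61.3% in the same order. This stretch was below the median of all segments in the pool and clones 3, 4, 8 and B52 and above it in clone E9-3. Within it Igkv12-44 and Igkv12-40, which are not next to each other, stood at opposite ends in each library. They shared these ends with other segments of the stretch. Igkv8-34 was at 100% in all 6 libraries and Igkv5-45 at 100% in clones B52 and E9-3, while Igkv18-36 and Igkv1-35 were at 0% in the pool.

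**Figure D3:**
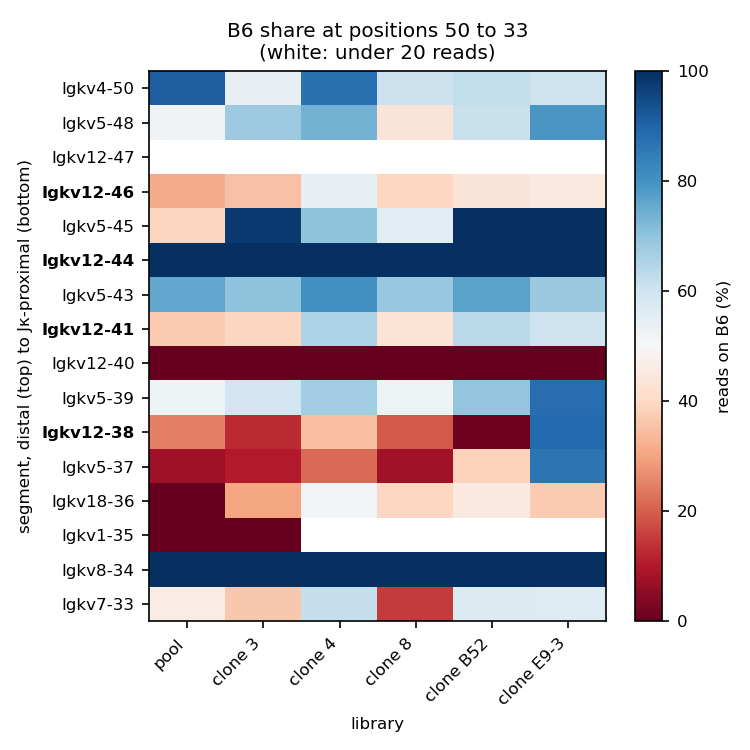
Percent of reads on the B6 allele as colour (red toward Cast, blue toward B6, white also where a segment had under 20 reads) for the 16 segments with position numbers 50 to 33 (rows, distal at the top) in the pool and the 5 clones at 48 h (columns). Igkv12-44 is at the B6 end and Igkv12-40 at the Cast end in all 6 libraries, and the row of Igkv12-38 turns from Cast to B6 in clone E9-3 only.

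Igkv12-98, the distal member, was the lowest of the 5 in the pool and the 5 clones at 48 h, although Igkv12-38 was lower at 12, 36 and 48 h of the time course. Its B6 reads numbered 561 in the pool and 0, 79, 82, 30 and 12 in clones 3, 4, 8, B52 and E9-3, and its Cast reads 794 in the pool and 17, 28, 86, 20 and 17 in the same clones. It made up 0.422% of the pool, and 0.0103%, 0.165%, 0.141%, 0.0723% and 0.0846% of clones 3, 4, 8, B52 and E9-3, so that the pool lay above all 5 clones. The B6 share was 41.4% in the pool and 73.8%, 48.8%, 60.0% and 41.4% in clones 4, 8, B52 and E9-3. Clone 3, at 0% with an upper bound of 18.4% on 17 reads, lay below all others. The interval of clone 4 (64.8% to 81.2%) overlapped that of clone B52 (46.2% to 72.4%) and lay above those of the pool, clone 8 and clone E9-3. In the other 48 h library of clone 4 the share was 62.9% (46.3% to 76.8%). That interval overlapped those of clone 8 and clone E9-3 too.

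Of the neighbours of Igkv12-98 on the chromosome, Igkv10-96 was higher in all 6 libraries. Igkv10-96, 60.7 kb nearer to Jκ and in the opposite orientation, made up 0.973% to 2.89% of the clones, with B6 shares of 54.7% to 78.0%. Igkv1-99, 28.3 kb on the distal side, made up 0.0116% to 0.270% of the clones, against 0.0103% to 0.165% for Igkv12-98, and in clone E9-3 they were nearly equal, at 0.0817% and 0.0846%. The nearest B6 shares to those of Igkv12-98 were those of Igkv4-58 and Igkv3-1, with mean absolute differences of 12.3 and 13.0 percentage points, which include the 17 reads of clone 3.

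Whether a segment was read unequally on the alleles over the clones was tested with edgeR's quasi-likelihood test on B6 and Cast counts with clone as a block, and Benjamini-Hochberg adjustment over 104 segments. Of all segments 40.4% were called, 33.7% with more B6 and 6.73% with more Cast reads, and of the 5 members 1 was called. That was Igkv12-44, with an adjusted p of 2e-05 and B6 reads above Cast reads in 5 of 5 clones. Its fitted fold rests on the prior count, because of its single Cast read in the clones, and is not given.

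The other members did not pass this test. The log2 ratio of B6 to Cast was −0.38 ± 0.40 (SE) for Igkv12-46 (edgeR adjusted p = 0.441), 0.26 ± 0.42 for Igkv12-41 (0.632), −1.80 ± 1.17 for Igkv12-38 (0.226) and −0.28 ± 1.06 for Igkv12-98 (0.845). The ratio was below 0 in 4 of 5 clones for Igkv12-46 and Igkv12-38. Leaving out clone E9-3 moved Igkv12-38 to −2.69 (edgeR adjusted p = 0.0517), and leaving out clone B52 moved it to −0.97. Scaling each allele to its own total with TMM lowered the median log2 ratio of all segments from 1.34 to 0.45 and changed the split of calls from 35 B6 and 7 Cast to 30 B6 and 20 Cast. On that scale 48.1% of the segments were called, 28.8% toward B6 and 19.2% toward Cast, the latter with Igkv12-46 (−1.28, edgeR adjusted p = 0.0176). DESeq2 called 59.6%, 21.2% toward Cast, and 3 of the 5 members, which is the background share. Besides Igkv12-44 these were Igkv12-46 (−1.02, DESeq2 adjusted p = 0.00266) and Igkv12-38 (−2.64, DESeq2 adjusted p = 0.0134), both toward Cast. The call for Igkv12-46 thus depended on the scaling of the alleles. Igkv12-38 was at −2.74 with TMM (edgeR adjusted p = 0.129), so that its call depended on the tool.

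Whether the B6 share differed between the 5 clone libraries was tested with a Monte Carlo chi-square test, which compares libraries and not clones. Of the 104 segments 76.9% were called, and 4 of the 5 members were, each with an adjusted p of 0.000149 and an unadjusted p of 0.0001, the smallest that the draws allow. Between the lowest and the highest clone the B6 share moved by 87.5 percentage points in Igkv12-38, 73.8 in Igkv12-98, 26.2 in Igkv12-41 and 18.99 in Igkv12-46. Igkv12-44 moved by 0.0573 percentage points (adjusted p = 0.856 by the Monte Carlo test), and with a single Cast read in the clones it could hardly move. A share of 4 in 5 is close to the background, and these calls are no feature of the family.

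Counting error understates the spread between libraries, so the test was repeated with each count divided by 17.1, which is the chi-square statistic between the 2 libraries of clone 4 at 48 h averaged over segments. Then 40.4% of the segments were called. Igkv12-38 (Monte Carlo adjusted p = 0.000371) and Igkv12-41 (0.0116) remained called, and Igkv12-46 (0.161) and Igkv12-98 (1) did not. The divisor is a mean over segments, and for Igkv12-41 itself the statistic between the libraries of clone 4 was 32.8, so that its call may not allow for its own spread. For Igkv12-46, Igkv12-98 and Igkv12-38 it was 3.69, 1.55 and 0.213. The divisor may therefore overstate the spread of these members, among them those that lost the call. In the divided counts the range was still 18.8 percentage points in Igkv12-46 and 71.4 in Igkv12-98. Igkv12-98 had 17 to 168 reads in the clones before the division, too few for the divided test to decide on it. Without clone E9-3 the range of Igkv12-38 was 33.7 percentage points, and without clone 3 the range of Igkv12-98 was 32.5. Without clone 4 the range of Igkv12-46 was 9.85, and with the time-course library in place of the deeper library of clone 4 that of Igkv12-41 was 46.2.

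Over the 86 segments with at least 20 reads in each clone, the range of the B6 share had a median of 27.6 percentage points, with quartiles of 11.2 and 46.5. Igkv12-38 had the widest range of all, at 87.5 percentage points against 87.2 for Igkv4-53, the next. Its low end was clone B52, with 2 B6 reads of 137. Igkv12-41 ranked 47, Igkv12-46 ranked 57 and Igkv12-44 ranked 75. Igkv12-98 had too few reads in clone 3 to be ranked. The ranked members therefore lay from rank 1 to rank 75. With a single Cast read in the clones, the share of Igkv12-44 could hardly move between them.

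**Figure D4:**
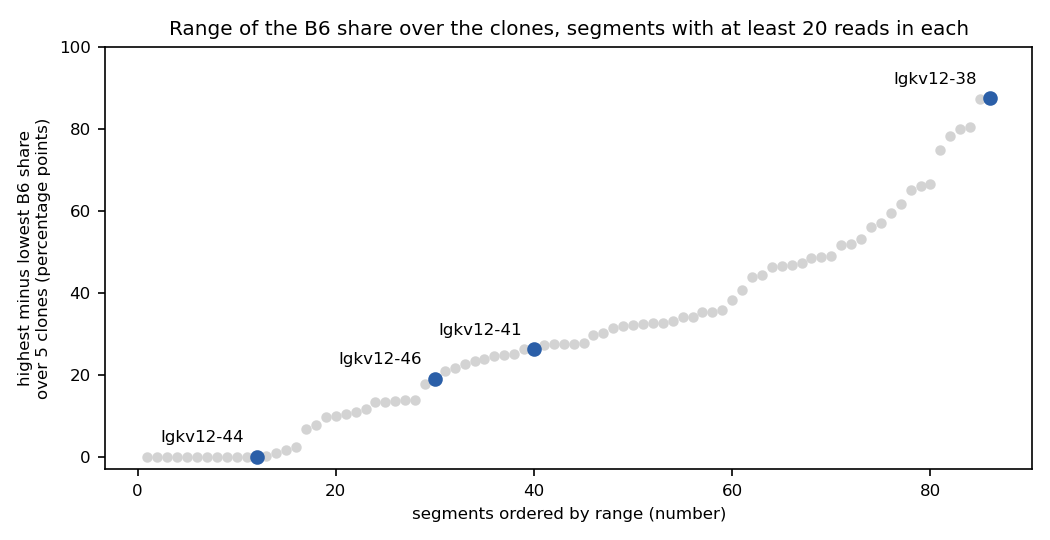
Highest minus lowest B6 share over the 5 clones in percentage points (y axis) for the 86 segments that had 20 reads or more in every clone (grey points), ordered from the smallest to the largest (x axis), with 4 members of the family in blue. Igkv12-38 is at the top with 87.5, Igkv12-41 (26.2) and Igkv12-46 (18.99) lie in the middle, and Igkv12-44 is next to 0.

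Between the pool and the clones no segment was called by edgeR's quasi-likelihood test on reads of both alleles (0% of 105), where 7 had an unadjusted p under 0.05 and DESeq2 called 4 (3.81%), none of them among the 4 members for which it gave a p. The pool has 1 library and was assumed to vary like the clones. The log2 fold of the pool over the clones was 2.16 ± 1.26 (SE) for Igkv12-98 and 1.31 ± 0.80 for Igkv12-46 (edgeR adjusted p = 0.702 for both), and the pool was above each of the 5 clones in both. It was −0.55 ± 0.84 for Igkv12-44, whose level in the pool was below each of the 5 clones, 0.35 ± 0.90 for Igkv12-41 and −1.06 ± 1.50 for Igkv12-38 (adjusted p = 0.910 for all). The value of Igkv12-38 was set by clone E9-3, and without that clone it was 0.57.

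In clone 4 the members were followed over 12, 24, 36 and 48 h without IL-7, in libraries of 1737, 1174, 7092 and 10958 reads. The 5 segments together made up 3.86%, 7.24%, 7.21% and 8.10% of reads in that order. Igkv19-93, a segment outside the family, made up 59.0% of reads at 12 h and 8.94% at 48 h, and so shaped the percentages of all others. Without it in the total the 5 segments made up 9.40%, 10.6%, 8.47% and 8.90%, with no steady rise.

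Igkv12-44 was present from the first time point. It had 48, 27, 223 and 345 reads at the 4 times, all on B6, which were 2.76%, 2.30%, 3.14% and 3.15% of the libraries with overlapping intervals. At 12 h it ranked 4 of all segments on B6. Without Igkv19-93 in the total it made up 6.73%, 3.38%, 3.70% and 3.46%.

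Igkv12-46 and Igkv12-41 were low at 12 h and higher later. Igkv12-46 had 7, 27, 101 and 170 reads on B6 and 1, 11, 63 and 111 on Cast at the 4 times, or 0.461%, 3.24%, 2.31% and 2.56% of reads. Igkv12-41 had 8, 13, 87 and 177 on B6 and 0, 5, 9 and 30 on Cast, or 0.461%, 1.53%, 1.35% and 1.89%. Without Igkv19-93 in the total, Igkv12-46 made up 1.12%, 4.76%, 2.72% and 2.82%, and Igkv12-41 1.12%, 2.25%, 1.59% and 2.07%, so that the difference between 12 h and 48 h was smaller. On the full total the interval at 12 h, 0.234% to 0.906% in both segments, lay below those of the 3 later times in each.

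The B6 share of Igkv12-46 was 87.5%, 71.1%, 61.6% and 60.5% over time, with intervals of 52.9% to 97.8% at 12 h and 54.7% to 66.0% at 48 h that overlap. That of Igkv12-41 was 100%, 72.2%, 90.6% and 85.5%. All reads of clone 4 together were 84.2%, 79.5%, 76.2% and 76.7% on B6, so that by intervals Igkv12-41 was above its library at 36 and 48 h and Igkv12-46 below it at the same times. At 12 and 24 h the intervals of both included the share of their library. Clone 4's other library, the deeper of the pair, had Igkv12-41 below the share of all reads instead, at 65.5% against 71.8%.

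Igkv12-98 and Igkv12-38 were near the detection limit at first. Igkv12-98 had 3, 0, 22 and 35 reads at the 4 times, or 0.310% and 0.319% at the last 2 times. Igkv12-38 had 0, 2, 6 and 20 reads, and made up 0.183% at 48 h with 14 of 20 reads on Cast. At 24 h 3 reads equal 0.256% of the library, so that the absence of either segment could not be shown.

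**Figure D5:**
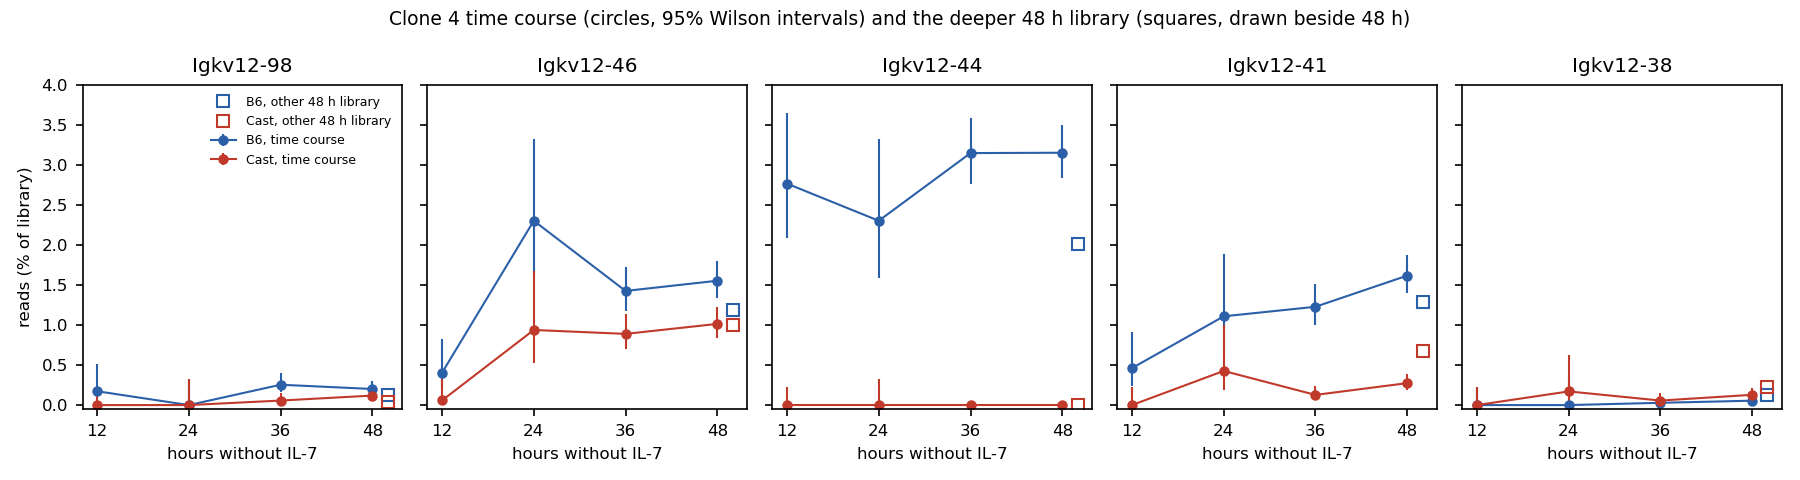
Reads on the B6 allele (blue circles) and the Cast allele (red circles) as percent of all reads of the library (y axis) against hours without IL-7 (x axis) in clone 4, 1 library per time, with 95% Wilson intervals, and the deeper 48 h library of clone 4 as squares drawn beside 48 h. Igkv12-44 is between 2.30% and 3.15% on B6 in the time course and at 2.01% in the deeper library. Igkv12-46 is at 0.461% over both alleles at 12 h and 2.56% at 48 h of the time course.

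A linear trend with time was tested with edgeR's quasi-likelihood test, and of 81 segments 2.47% were called and 19 had an unadjusted p under 0.05. Of the 5 members 0 were called and 0 had an unadjusted p under 0.05. The log2 slope per 12 h was 0.49 ± 0.64 (SE) for Igkv12-98, 0.51 ± 0.39 for Igkv12-46, 0.10 ± 0.23 for Igkv12-44, 0.54 ± 0.38 for Igkv12-41 and 0.76 ± 0.82 for Igkv12-38, with edgeR adjusted p between 0.362 and 0.779. Relative to the other segments the slope of Igkv12-44 turned negative, at −0.28 both with TMM and without Igkv19-93 in the total, and without the 12 h library that of Igkv12-46 was −0.15. Without Igkv19-93 in the total the slope was 0.12 for Igkv12-98, 0.17 for Igkv12-46, 0.18 for Igkv12-41 and 0.47 for Igkv12-38. With TMM these slopes were 0.13, 0.19, 0.20 and 0.49. Fisher's exact test of the reads at 12 h against 48 h, which compares those 2 libraries, called 64.2% of the 81 segments, 55.6% as rising and 8.64% as falling, and 2 of the 5 members, which is no larger a share. These were Igkv12-46 (log2 fold 2.39, adjusted p = 1.18e-09) and Igkv12-41 (1.95, adjusted p = 5.12e-06). The B6 share over the 4 times, tested by Monte Carlo chi-square test over 81 segments, of which 11.1% were called, gave adjusted p of 0.343 to 1 for the members.

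The 2 libraries of clone 4 at 48 h, which differ in depth and come from tables counted separately, show how far values of the same clone can move. Of 74 segments 20.3% differed by more than 2-fold in percent of library, and 0 of the 5 members did. Igkv12-41 differed by 1.04-fold, Igkv12-46 by 1.18-fold, Igkv12-44 by 1.56-fold, Igkv12-38 by 1.88-fold and Igkv12-98 by 1.93-fold, against a median of 1.55-fold over the segments. The B6 share of Igkv12-41 moved from 65.5% in the deeper library to 85.5% in the time course, by 19.97 percentage points, and that of Igkv12-46 from 54.3% to 60.5%. The median movement of all segments was 7.90 percentage points. Between clones 3 and 4 the B6 share of Igkv12-41 differed by 26.2 percentage points with the deeper library of clone 4 and by 46.2 with that of the time course. The B6 share of Igkv12-38 in clone 4 was 35.1% and 30.0% in the 2 libraries, against 89.0% in clone E9-3.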

How the data were processed

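Per the labels and the study's methods, polyadenylated RNA was reverse transcribed from Cκ, ligated to an adapter, amplified by PCR and sequenced on a MiSeq. The authors trimmed the paired reads (Trim Galore in the submitters' notes), mapped them by Bowtie2 onto a hybrid of the B6 (mm10) and Cast genomes and took counts per Vκ segment with HTSeq, and versions are not given in the sources used here. The deposited values are raw read counts of 112 segments per allele, not normalized. The ATAC-seq and nuclear RNA samples were not analysed here.

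Percentages, shares and 95% Wilson intervals came from pandas 2.3.3, SciPy 1.17.1 and NumPy 2.4.6 in Python 3.11.15, alignments with Biopython 1.88, and figures with matplotlib 3.10.9. Count tests used edgeR 4.0.16, with DESeq2 1.42.0 as an alternative, in R 4.3.3, with the library total as library size, no further scaling, and segments with at least 20 reads over the libraries tested. Monte Carlo chi-square tests used 9999 draws. Calls are at a Benjamini-Hochberg adjusted p under 0.05 over all segments tested. No library has a replicate within its table, so p-values of edgeR and DESeq2 measure the spread between these libraries, and those of the Monte Carlo and Fisher tests counting error only.

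Tested on simulated counts, the allelic test recovered 11 of 30 changed segments at 4-fold and 30 of 30 at 16-fold among 104, the test of the pool 0 and 17 of 30 among 105, the trend test 0 and 7 of 30 among 81, and the share test 28 of 30 shifted by 30 percentage points, with 2 false calls. The counts for the share test were simulated with counting error only. Its false calls therefore do not cover the spread between libraries, for which the mean chi-square in clone 4 was 17.1. Coordinates are those of GENCODE M21 on mm10, in which 111 of the 112 segments were found by name. The members and lists were chosen with earlier results of these data known. Named besides the members were the other rows of the family, the counted neighbours of each member, the segments with position numbers 33 to 50, the 2 segments nearest in B6 share over the pool and the 5 clones among segments with at least 20 reads in each (Igkv12-98 itself had 17 in clone 3), and Igkv19-93. Among the 9 segments with position numbers 93 to 103, around Igkv12-98, those with at least 20 reads had a median B6 share of 55.5% in the pool and 48.8% to 74.9% in the clones. Alternatives varied the read minimum, scaling, tool, block, alleles, libraries and denominator.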

Additional observations from a re-analysis of the deposited data

Results flagged for a closer look

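The B6 share of 4 members differed between the 5 clone libraries by the Monte Carlo chi-square test, which compares libraries and not clones and called 76.9% of all 104 segments. The highest minus the lowest share was 87.5 percentage points in Igkv12-38, 73.8 in Igkv12-98, 26.2 in Igkv12-41 and 18.99 in Igkv12-46. With counts divided by the spread between the libraries of clone 4, Igkv12-38 and Igkv12-41 stayed past the threshold, as did 40.4% of all segments. Igkv12-46 and Igkv12-98 did not. The range of Igkv12-98 rests on 17 reads in clone 3 and was 32.5 percentage points without that clone. That of Igkv12-38 was 33.7 without clone E9-3. The B6 share of Igkv12-41 differed by 19.97 percentage points between the libraries of clone 4. Library depth (34291 to 165679 reads in the clones) differs between the same libraries, and its part in these differences was not tested.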

How the results depend on the processing

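The clones serve as replicates of the allelic contrast, since B6 and Cast reads of a clone come from the same cells, and the clone was the block. Without the replicate block 47 segments were called in place of 42, and the log2 ratios of Igkv12-98 (0.40) and Igkv12-38 (1.29) changed sign. Leaving out a clone gave 36 to 42 calls, and Igkv12-98 ranged from −0.81 to 0.38 (without clone 3), and Igkv12-38 from −2.69 (without clone E9-3) to −0.97 (without clone B52). With each allele scaled to its own total with TMM 50 segments were called, and with DESeq2 62, and Igkv12-41 changed sign to −0.64 and −0.38. Igkv12-44 kept its call under all of these. For the pool against the clones DESeq2 called 4 segments in place of 0. Igkv12-41 was at −0.21 on B6 reads only and Igkv12-38 at 0.31 on Cast reads only, and when a clone was left out Igkv12-38 ranged from −1.32 to 0.57, the latter without clone E9-3. For the trend over time 2 calls became 1 with no read minimum, 1 with at least 100 reads, 7 with TMM, 5 without Igkv19-93 in the total, 16 with the other 48 h library of clone 4 and 52 by Fisher's exact test, and 0 to 6 when a time was left out. The slope of Igkv12-44 was −0.28 with TMM, −0.28 without Igkv19-93 and −0.087 with the other 48 h library, and that of Igkv12-46 ranged from −0.15 without 12 h to 1.08 without 48 h. For the B6 share between clones, divided counts gave 42 calls in place of 80. Without Igkv19-93 in the total the members made up 7.38% of the pool, 4.32% of clone 3, 6.96% of clone 4, 5.38% of clone 8, and 9.40%, 10.6%, 8.47% and 8.90% of clone 4 at 12, 24, 36 and 48 h. From the percent of each allele's own reads, their B6 share was 35.03% in the pool, 52.4%, 48.9%, 43.5%, 54.5% and 76.5% in clones 3, 4, 8, B52 and E9-3. The cause of these changes was not tested. Over all alternatives 187 values of single segments, some of them named above, kept direction and call. For the B6 share between clones the value is a range without a sign, so that only the call could change. In the main tests of the pool and of the trend no member was called, so that keeping the call there meant staying uncalled. For Igkv12-38 in the pool against the clones DESeq2 gave no adjusted p, so that this value kept its direction only. Depth limits most the time course, where 3 reads equal 0.173% of the library at 12 h and 0.256% at 24 h.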
